A study of Mus musculus with 2 samples.

Results

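The vascular endothelial growth factor (VEGF) family and its receptors were followed through 2 single-cell RNA libraries of day 5 skin wounds as 9 genes of the 31053 in the matrices. They were chosen by symbol and not by a measured value, although earlier results of these data were known. The ligand genes were *Vegfa*, *Vegfb*, *Vegfc* and *Pgf*, the receptor tyrosine kinase genes *Flt1*, *Kdr* and *Flt4*, and the co-receptor genes *Nrp1* and *Nrp2*. All 9 had counts in both libraries. Each library held live cells, sorted as negative for the viability dye 7AAD, from full-thickness wounds on the back of C57BL/6 mice, where the wound bed and the skin around it were collected with a 10 mm punch. The mice were 7 to 9 weeks old and are labelled as carrying Mrc1-DTR, a diphtheria toxin receptor placed under the control of *Mrc1*, the gene of the mannose receptor CD206. One label gives PBS as the treatment and the other diphtheria toxin (DTX). The study's methods instead describe the controls as wild-type mice of the same background given the toxin, so the genotype and injection of the control group cannot be told apart from the sources. Mice of a group were pooled and there was 1 library per group, so no difference between the libraries has a replicate check, no p-value is given, and every interval is a 95% interval of counting error only.

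VEGF-A binds the receptors encoded by *Flt1* (VEGFR1) and *Kdr* (VEGFR2). VEGFR2 carries most of the signal for endothelial division, migration and permeability, while VEGFR1 binds VEGF-A tightly with weak kinase output and, as a soluble form, acts as a decoy. VEGF-B and placental growth factor, encoded by *Vegfb* and *Pgf*, bind VEGFR1 and not VEGFR2. VEGF-C acts mainly, though not only, through VEGFR3, encoded by *Flt4*, the main receptor of lymphatic endothelium. Neuropilin 1 and neuropilin 2 are co-receptors that also bind class 3 semaphorins. In healing skin VEGF-A is made by macrophages and keratinocytes among others and drives the growth of granulation tissue vessels. The libraries count the 3′ ends of transcripts, so the splice forms of *Vegfa* and the soluble form of *Flt1* were not separated.

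The gene whose promoter drives the toxin receptor was checked against the labels first, with a mixed result. *Mrc1* had 5311 unique molecular identifiers (UMIs), or 65.4 CPM (UMIs scaled to a total of 1000000), over the kept cells of the library labelled PBS, and 14694 UMIs or 268 CPM in the library labelled DTX. Macrophage-like cells made up 21.5% and 66.7% of those cells, and within them *Mrc1* was slightly lower in the library labelled DTX, at 492 and 433 CPM (log2 ratio -0.18, -0.24 to -0.13). A macrophage-like subcluster led by *Ccl8* with *C1qa* among its leading genes was 73.7% of that class in the first library and 5.44% in the second. The study's text attaches the barcode totals to the groups the other way round, although the order in which it gives the groups' immune cell shares is that of the labels. It also reports *C1qa* macrophages as most of the macrophages in control wounds and few of them in Mrc1-DTR wounds, the order of the subcluster here. The groups here are those of the labels, and the libraries are called PBS-labelled and DTX-labelled throughout, since whether they were exchanged was not tested. Of 12058 and 11031 barcodes, 8326 and 7188 passed limits of 500 genes or more and a mitochondrial share of 6% or less, and 7944 and 6613 remained after doublet removal, with 81235634 and 54872675 UMIs and medians of 9579.5 and 7286 UMIs per cell. The libraries shared 37 barcode sequences, 13 of them among kept cells.

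Clustering without the 9 genes gave 10 classes with at least 20 cells in each library, named "-like" from marker genes. The PBS-labelled library held 1705 macrophage-like, 456 dendritic-like, 123 Langerhans-like, 129 neutrophil-like, 225 NK or T-like, 103 mast-like, 3065 fibroblast-like, 1997 epithelial-like, 61 pericyte-like and 73 endothelial-like cells. The DTX-labelled library held 4412, 466, 37, 461, 151, 25, 656, 228, 111 and 55 in the same order. The vascular classes bore their defining markers. *Cdh5*, the endothelial cadherin, was at 1007 and 1040 CPM in endothelial-like cells, and *Rgs5*, a pericyte gene, was at 4606 and 5904 CPM in pericyte-like cells but 33.4 and 7.78 CPM in endothelial-like cells. *Cd207*, the gene of langerin, was at 11537 and 9756 CPM in Langerhans-like cells. The mast-like class was mixed. *Cpa3*, a mast cell protease gene, was found in 27.2% and 64% of its cells and the basal keratinocyte gene *Krt14* in 77.7% and 40% of them, and the summed level of 16 keratinocyte genes was 55.7% and 33.0% of that in epithelial-like cells. In each class the UMIs of a gene were summed over cells and given as CPM of that class's UMIs. The ratio is log2 of (DTX-labelled CPM + 1) over (PBS-labelled CPM + 1), counted only where a gene had at least 50 UMIs in both libraries together.

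The promoters of 2 ligand and 2 receptor genes are shown because these genes had the highest levels of their kind in any class. *Vegfa* was highest in macrophage-like, *Pgf* in Langerhans-like, and both *Flt1* and *Kdr* in endothelial-like cells. All 9 genes were matched by symbol to RefSeq start sites of build GRCm38.p6, and each line below is the 250 bases upstream of the start nearest the gene's 5′ end, on the minus strand, 5′ to 3′. For *Vegfa* (chr17:46032378-46032627) and *Pgf* (chr12:85177314-85177563) the capitals mark the GC box, searched as GGGCGG and CCGCCC. For *Flt1* (chr5:147726012-147726261) and *Kdr* (chr5:75978456-75978705) they mark the ETS core, searched as GGAA and TTCC, and the cyclic AMP response element, TGACGTCA. Other matches were left in lower case. The *Pgf* window lies inside the annotated gene, since the RefSeq start used is downstream of the gene's annotated 5′ end.
Vegfa: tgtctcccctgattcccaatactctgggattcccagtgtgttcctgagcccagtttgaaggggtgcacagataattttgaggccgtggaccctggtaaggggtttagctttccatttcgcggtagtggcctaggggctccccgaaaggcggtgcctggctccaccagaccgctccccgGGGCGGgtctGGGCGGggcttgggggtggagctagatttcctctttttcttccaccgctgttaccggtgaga
Pgf: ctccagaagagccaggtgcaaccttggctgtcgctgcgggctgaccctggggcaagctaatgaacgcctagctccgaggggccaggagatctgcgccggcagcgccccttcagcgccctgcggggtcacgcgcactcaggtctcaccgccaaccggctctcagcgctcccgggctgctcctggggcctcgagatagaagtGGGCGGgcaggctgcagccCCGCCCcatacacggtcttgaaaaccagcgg
Flt1: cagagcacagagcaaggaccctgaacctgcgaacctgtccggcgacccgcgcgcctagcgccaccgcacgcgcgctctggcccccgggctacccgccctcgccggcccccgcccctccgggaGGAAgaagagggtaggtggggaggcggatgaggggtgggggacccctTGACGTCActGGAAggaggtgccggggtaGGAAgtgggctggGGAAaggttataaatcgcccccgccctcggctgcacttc
Kdr: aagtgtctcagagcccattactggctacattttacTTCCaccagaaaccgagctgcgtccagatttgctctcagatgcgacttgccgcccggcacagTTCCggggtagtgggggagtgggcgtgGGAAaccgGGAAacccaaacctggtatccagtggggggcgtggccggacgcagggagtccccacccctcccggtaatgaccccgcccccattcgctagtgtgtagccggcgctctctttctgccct

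The *Vegfa* and *Pgf* windows each held 2 GC boxes, a motif present in 32.7% of the 32851 upstream windows in the table. Neither held the hypoxia response core, searched as ACGTG and CACGT and found in 16.6% of all windows. The *Flt1* window held 4 ETS cores and 1 cyclic AMP response element, and the *Kdr* window 4 ETS cores and no such element. An ETS core occurred in 93.4% of windows and the cyclic AMP response element in 1.55%. A match of letters is a description of the window only, and so is its absence. In GRCm38 with GENCODE vM21, *Vegfa* spans chr17:46016993-46032369, *Pgf* chr12:85166635-85177790, *Flt1* chr5:147561604-147726011 and *Kdr* chr5:75932827-75978458, each on the minus strand and overlapped by no other annotated gene. *Vegfb* (chr19:6982473-6987651, minus strand), *Vegfc* (chr8:54077606-54187096, plus strand) and *Flt4* (chr11:49609263-49652739, plus strand) have no overlapping gene either. *Nrp1* (chr8:128358604-128503363, plus strand) holds Mir1903, which is not a row of the matrices. *Nrp2* (chr1:62703285-62818695, plus strand) overlaps Gm37121 on its own strand, which is not a row of the matrices, and Gm29083 on the other strand, which is.

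Over all kept cells, *Vegfa* was the ligand gene whose level differed most between the libraries. It had 7163 UMIs or 88.2 CPM in the PBS-labelled library and 15743 UMIs or 287 CPM in the DTX-labelled library, a log2 ratio of 1.69 (1.65 to 1.73). *Pgf* was at 51.9 and 114 CPM, with a ratio of 1.12 (1.06 to 1.17). *Vegfb* and *Vegfc* had the opposite sign, at 11.1 against 6.94 CPM (-0.61, -0.77 to -0.46) and 7.13 against 3.08 CPM (-0.99, -1.19 to -0.80). The receptor genes were closer together. *Flt1* was at 19.2 and 29.997 CPM, *Kdr* at 4.67 and 7.38 CPM and *Flt4* at 1.02 and 0.911 CPM, while *Nrp1* was at 41.3 and 38.2 CPM and *Nrp2* at 70.5 and 92.7 CPM.

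The share of each class in a library moves these totals. With the class levels of the PBS-labelled library weighted by the UMI shares of the classes in the DTX-labelled library, *Vegfa* came to 245 CPM. With the DTX-labelled levels at the PBS-labelled shares it came to 114 CPM, a log2 ratio to the PBS-labelled total of 0.37. The same exchange gave 84.4 and 61.0 CPM for *Pgf*, 3.32 and 6.85 CPM for *Vegfc*, and 67.6 and 40.9 CPM for *Nrp1*. Most of the library-wide difference in *Vegfa* and *Vegfc* therefore went with the mixture of cells that was captured and sorted, and fewer cells of a class in the wound, fewer of them recovered and less RNA in each cannot be told apart in such a total.

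Macrophage-like cells held 44.2% (43.1 to 45.4) of the *Vegfa* UMIs of the PBS-labelled library and 85.1% (84.6 to 85.7) of those of the DTX-labelled library, from 10.3% and 55.2% of all UMIs. Over the alternatives the shares ran from 29.3% to 88.0% and from 61.1% to 97.4%, lowest at a clustering resolution of 0.5 and highest when cells with more than 2000 genes were left out. Fibroblast-like cells held 33.7% and 5.71%, and epithelial-like cells 7.71% and 0.953%. *Vegfa* had UMIs in all 10 classes of each library. *Vegfc* UMIs were mostly in fibroblast-like cells, at 94.0% and 71.6%, and so were those of *Vegfb*, at 68.2% and 50.1%. *Pgf* had no such single source. In the PBS-labelled library 41.2% of its UMIs were in the 123 Langerhans-like cells, 26.8% in dendritic-like and 14.0% in macrophage-like cells, against 6.76%, 38.8% and 48.3% in the DTX-labelled library.

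**Figure D1:**
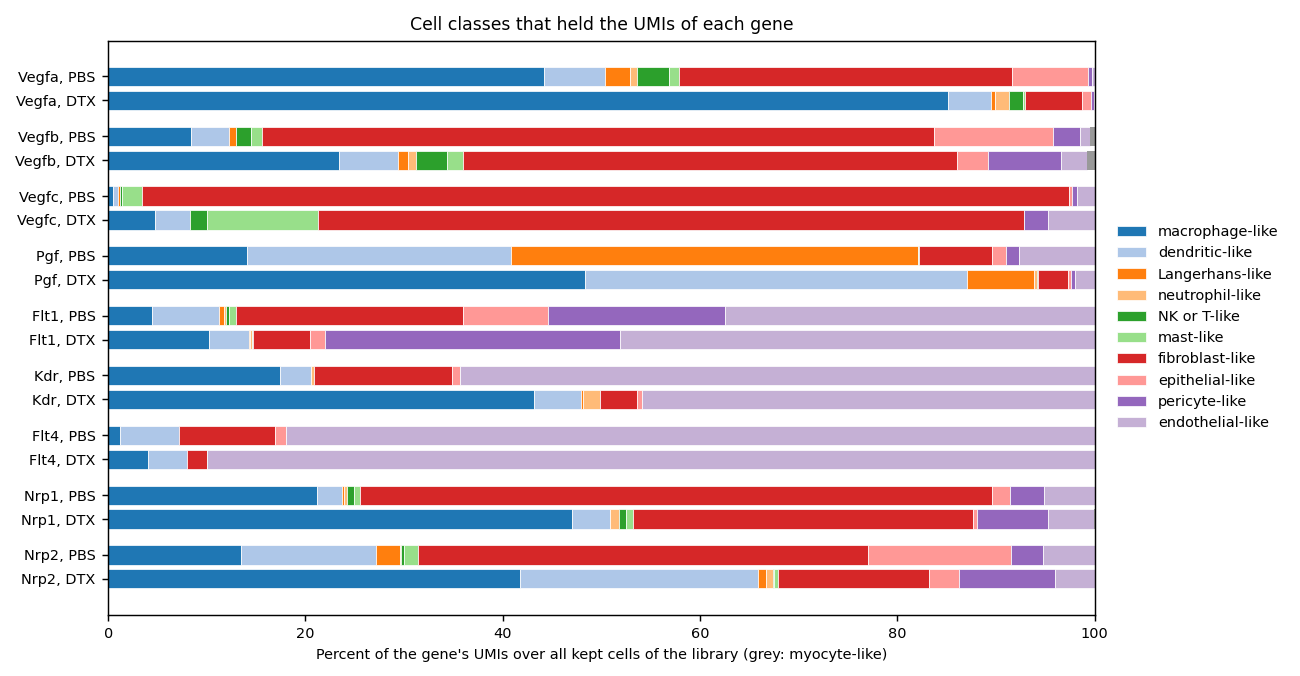
Percent of the UMIs of each of the 9 genes that lay in each cell class, 1 bar per gene and library (PBS-labelled and DTX-labelled). The macrophage-like part of the *Vegfa* bar is 44.2% and 85.1%, and the fibroblast-like part of the *Vegfc* bar is 94.0% and 71.6%.

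As CPM, *Vegfa* was higher in macrophage-like cells than in the other 9 classes of each library beyond counting error. It was at 379 CPM (366 to 393) in the PBS-labelled and 443 CPM (435 to 450) in the DTX-labelled library, and 63.1% and 75.9% of macrophage-like cells had a *Vegfa* UMI. With each cell thinned to 2000 UMIs the shares were 45.0% and 50.3%, against 4.29% and 1.92% of endothelial-like cells, the class with the lowest level at 16.2 and 10.4 CPM. Neutrophil-like cells were second at 254 and 193 CPM, from 49 and 222 UMIs and median depths of 1229 and 1922 UMIs per cell. Only 11 and 203 of them could be thinned to 2000 UMIs, and 54.5% (23.4 to 83.3) and 17.2% (12.3 to 23.2) of these had *Vegfa*. In all neutrophil-like cells the summed level of 10 macrophage genes, named below, was 37.5% and 52.6% of that in macrophage-like cells. The part of macrophage RNA in their *Vegfa* level was not tested. NK or T-like (144 and 162 CPM), Langerhans-like (139 and 158 CPM) and dendritic-like cells (107 and 126 CPM) came next, and in the DTX-labelled library the intervals of these neighbours overlapped. Fibroblast-like cells were at 69.0 and 92.7 CPM, mast-like at 48.4 and 99.1, pericyte-like at 34.7 and 29.2, and epithelial-like at 20.3 and 40.3 CPM.

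**Figure D2:**
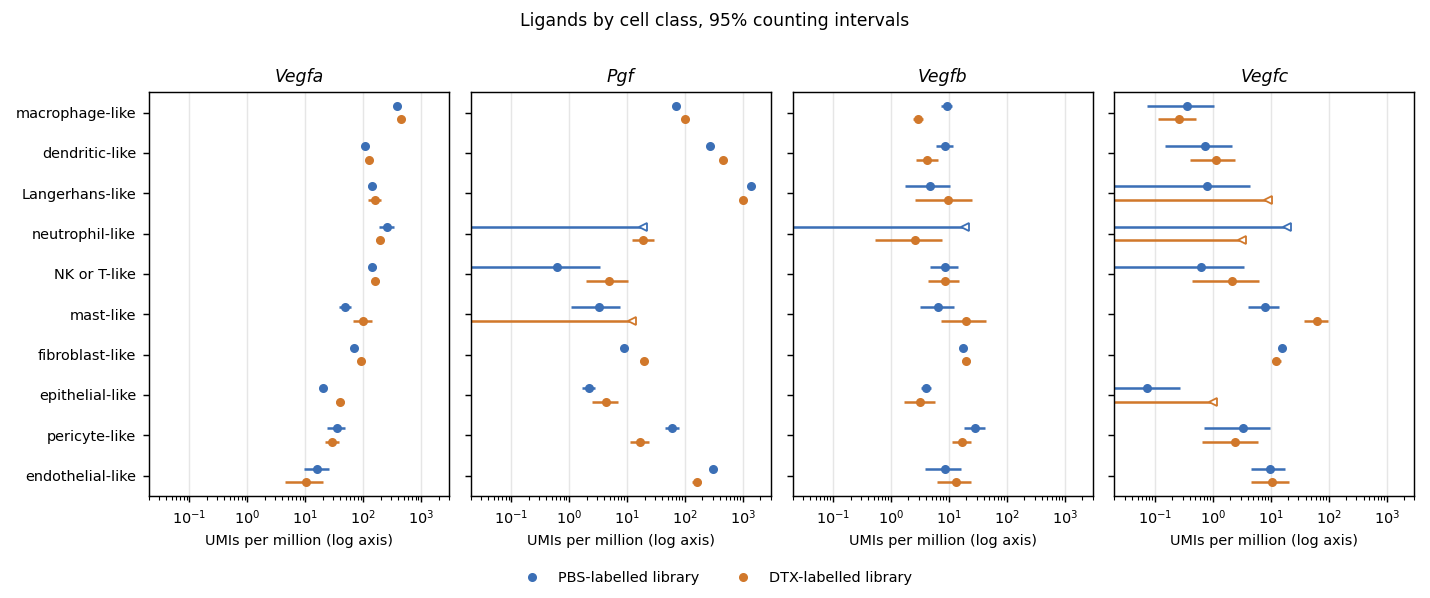
Level of the 4 ligand genes in each cell class, in CPM of the class on a log axis, with a point per library and bars for the 95% interval of counting error. An open triangle marks the upper limit where a class had 0 UMIs. *Vegfa* peaks in macrophage-like cells at 379 and 443 CPM and *Pgf* in Langerhans-like cells at 1368 and 1010 CPM.

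Within classes the difference in *Vegfa* was small beside the library-wide one. The log2 ratio in macrophage-like cells was 0.22 (0.17 to 0.28), where the median over 10126 measured genes was 0.05. In fibroblast-like cells it was 0.42 (0.31 to 0.53), with -0.0044 when cells with more than 2000 genes were left out, and in epithelial-like cells 0.95 (0.69 to 1.21). Of the 9 classes with enough *Vegfa* UMIs, 5 had an interval above 0, none an interval below 0, and 4 an interval that held 0. A ratio past 2-fold occurred in mast-like cells alone (1.02, 0.36 to 1.64), from 74 and 30 UMIs, and stayed so in 6 of 10 alternatives. In that class 17.8% of all measured genes were past 2-fold, 8.63% higher and 9.15% lower in the DTX-labelled library, and 25 cells of the DTX-labelled library stood behind the value. Keratinocyte RNA in this mixed class was at 33366 and 20369 CPM and macrophage RNA at 53.0 and 551 CPM, and their part in the value was not tested.

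Macrophage RNA moved with the fibroblast and epithelial values. The summed level of 10 macrophage genes (*C1qa*, *C1qb*, *C1qc*, *Lyz2*, *Cd68*, *Fcgr1*, *Adgre1*, *Csf1r*, *Ms4a7* and *Cd14*) was 72.6 CPM in epithelial-like cells of the PBS-labelled library and 479 CPM in those of the DTX-labelled library, or 0.394% and 3.43% of its level in macrophage-like cells. All 10 genes were detected there and all 10 were past 2-fold higher. In fibroblast-like cells the sum was 117 and 429 CPM, with 9 of 10 past 2-fold higher and none at 0. A subcluster of 43 and 45 fibroblast-like cells and another of 23 and 16 epithelial-like cells were led by *Cd74* and *Lyz2*, and without them the *Vegfa* ratio was 0.28 in fibroblast-like and 0.32 in epithelial-like cells. That alternative was added after the data were seen. The part of macrophage RNA in what remained was not tested.

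The epithelial-like cells were not uniform in *Vegfa*. A subcluster led by *Cxcl2*, *Arl4c* and *Cald1* was at 52.7 and 67.2 CPM, against 9.73 and 11.8 CPM in the spinous-like cells marked by *Krt1* and *Krt10*, 23.6 and 22.1 CPM in the infundibulum-like cells marked by *Krt79*, and 16.0 and 9.28 CPM in the basal-like cells. In none of these 4 subclusters did the interval of the ratio exclude 0. Among fibroblast-like cells, a subcluster led by *Sfrp2* and *Mfap5* and named for *Plac8* had 95.7 and 88.4 CPM of *Vegfa*. The subcluster led by *Igfbp2* and *Grem1* had 39.5 and 85.6 CPM, a log2 ratio of 1.10 from 397 and 112 UMIs.

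Among macrophage-like cells the mixture of subclusters was nearly exchanged between the libraries. A subcluster led by *Ccl8*, *Mid1* and *Selenop* held 1256 of the 1705 PBS-labelled cells (73.7%) and 240 of the 4412 DTX-labelled cells (5.44%). The 3 subclusters led by *Ccl7* and *Cbr2*, by *Arg1* and *Cxcl3*, and by *Hp* and *Slpi* held 54, 15 and 36 cells against 1105, 1140 and 1033. Each of these is mostly of 1 library, so a subcluster and a library cannot be told apart here. The *Arg1* subcluster, named Cd9-like, had the highest *Vegfa*, at 611 and 600 CPM. The *Ccl8* subcluster had 390 and 318 CPM, the *Ccl7* subcluster 197 and 403, the *Hp* subcluster 246 and 350, and an MHC class II subcluster led by *Il1r2* 367 and 484 CPM. The Klf2-like subcluster had 396 and 233 CPM and the interferon-responsive Ifit1-like subcluster 310 and 426 CPM. *Vegfa* was thus higher in the DTX-labelled library in 4 of 7 subclusters. The DTX-labelled subcluster levels at the PBS-labelled subcluster shares gave 329 CPM, a log2 ratio of -0.21 to the PBS-labelled level. The PBS-labelled levels at the DTX-labelled shares gave 357 CPM, beside 379 and 443 CPM measured. Both exchanges thus lay below both measured levels.

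*Pgf*, the ligand that binds VEGFR1 but not VEGFR2, was at 1368 CPM (1304 to 1433) and 1010 CPM (916 to 1111) in Langerhans-like cells, above every other class of each library beyond counting error. Of these cells 92.7% and 83.8% had a *Pgf* UMI, with a median of 10 UMIs in each library. The ratio was -0.44 (-0.59 to -0.28), rested on 37 DTX-labelled cells, and ranged over the alternatives from -1.34 to -0.07. In the alternative that gave -1.34, a second cluster, of 100 and 78 cells, was also named Langerhans-like. The 37 DTX-labelled cells also held 183 UMIs of the pericyte gene *Rgs5*, or 438 CPM, against 1 UMI in the 123 PBS-labelled cells. Macrophage RNA was higher in them too, at 2118 against 3854 CPM, with 4 of the 9 measured genes past 2-fold higher. The part of either in the value was not tested.

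Dendritic-like cells had 273 CPM (258 to 290) of *Pgf* in the PBS-labelled and 448 CPM (430 to 466) in the DTX-labelled library, a log2 ratio of 0.71 (0.61 to 0.81). Most of it was in the subcluster led by *Clec4n*, *Mgl2* and *Cd209a*, which held 983 of 1131 and 2232 of 2421 UMIs and stood at 420 and 701 CPM. A subcluster led by *Fscn1*, *Ccl5* and *Ccl22*, genes of mature dendritic cells, had 34.4 and 120 CPM. A small subcluster led by *Ctsk*, *Acp5* and *Mmp9*, of 29 and 43 cells, ran the other way at 296 and 126 CPM. The class joined 2 clusters, of 353 and 361 and of 103 and 105 cells, and the smaller had none of the dendritic markers among its leading genes.

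In macrophage-like cells *Pgf* was at 70.9 CPM (65.3 to 76.8) and 99.7 CPM (96.2 to 103), a log2 ratio of 0.49 (0.36 to 0.61), with a UMI in 10.1% and 16.1% of cells. With cells thinned to 2000 UMIs the shares were 7.28% (6.01 to 8.72) and 9.02% (8.18 to 9.92), and their intervals overlapped. PBS-labelled levels at the DTX-labelled subcluster shares came to 79.3 CPM. The reverse exchange came to 80.8 CPM, a log2 ratio of 0.19 to the PBS-labelled level. *Pgf* was higher in the DTX-labelled library in 6 of the 7 subclusters. The *Il1r2* subcluster was at 204 and 227 CPM and the Ifit1-like subcluster at 155 and 232 CPM, whereas the *Ccl8* subcluster was at 65.9 and 67.7 CPM. *Pgf* was among the leading genes of the *Il1r2* subcluster, although it was not used to find it. When cells with more than 2000 genes were left out, the ratio in macrophage-like cells turned to -0.29. Endothelial-like cells were at 309 CPM (276 to 344.5) and 161 CPM (134 to 192), with a ratio of -0.94 (-1.25 to -0.64). There 1 cell held 33.0% of the PBS-labelled UMIs and 1 cell 20.2% of the DTX-labelled UMIs, and the mean over cells gave a ratio of -0.25.

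*Pgf* was also the gene with a ratio past 2-fold in opposite directions. In fibroblast-like cells it was at 8.91 and 19.3 CPM (1.03, 0.78 to 1.28), where 4.04% of measured genes were past 2-fold (2.64% higher and 1.4% lower), and in pericyte-like cells at 60.4 and 16.7 CPM (-1.80, -2.47 to -1.14), where 4.33% were (2.22% higher and 2.11% lower). The pericyte value rested on 54 and 28 UMIs and was -0.68 with cells thinned to 2000 UMIs. Keratinocyte RNA in pericyte-like cells was at 1449 and 359 CPM, with 9 of 9 measured genes past 2-fold lower, and its part in the value was not tested. The fibroblast value came with a shift among subclusters. The *Plac8* subcluster, at 20.0 and 22.6 CPM, was 27.8% of the PBS-labelled and 45.1% of the DTX-labelled fibroblast-like cells, and the subclusters led by *Igfbp2* and by *Ctla2a* were at 1.19 and 3.06 and at 1.52 and 2.46 CPM. Without the subcluster led by macrophage genes the fibroblast ratio was 0.75. Epithelial-like cells were at 2.21 and 4.30 CPM (0.72), which became -0.94 without theirs.

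*Vegfb* and *Vegfc* were sparse. *Vegfb* was at 17.6 and 19.7 CPM in fibroblast-like cells and at 28.0 and 16.7 CPM in pericyte-like cells, and the intervals of both ratios held 0. In macrophage-like cells it was at 9.10 CPM (7.17 to 11.4) and 2.94 CPM (2.36 to 3.62), from 76 and 89 UMIs, a log2 ratio of -1.36 (-1.73 to -0.97) that was -0.56 with 10 CPM added in place of 1. In that class 5.03% of 10126 measured genes were past 2-fold. Of the 10126 genes, 3.4% were past it lower and 1.63% higher in the DTX-labelled library. Within the *Ccl8* subcluster *Vegfb* was at 9.00 and 12.8 CPM, with a ratio of 0.46 whose interval held 0, and the DTX-labelled levels at the PBS-labelled subcluster shares came to 10.2 CPM, a ratio of 0.15. Fibroblast RNA moved in the same class. The summed level of 10 fibroblast genes was 942 and 201 CPM in macrophage-like cells, lower for all 10 by more than 2-fold, and its part in the *Vegfb* value was not tested.

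*Vegfc*, the lymphatic ligand, was at 15.5 CPM (14.3 to 16.9) and 12.5 CPM (10.4 to 14.9) in fibroblast-like cells, a log2 ratio of -0.29 (-0.57 to -0.03). The subcluster led by *Coch* and *Fmod* was highest at 21.9 CPM in the PBS-labelled library, and that led by *Ctla2a* lowest at 12.1 CPM among the 4 large subclusters. It was at 9.54 and 10.4 CPM in endothelial-like cells, from 10 and 8 UMIs, and at 0.359 and 0.264 CPM in macrophage-like cells. The 62.7 CPM of mast-like cells in the DTX-labelled library came from 19 UMIs in 5 cells, and 1 cell held 52.6% of them. Of the 6 other ligand and processing genes in the matrices, 5 were measured in fibroblast-like cells and none was past 2-fold. *Vegfd*, the other VEGFR3 ligand, was at 72.7 and 70.3 CPM there, *Ccbe1*, a cofactor of VEGF-C cleavage, at 26.0 and 38.8 CPM, and *Adamts2*, a procollagen protease, at 733 and 402 CPM.

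Among the receptors, *Kdr* was at 233 CPM (204 to 264) and 241 CPM (208 to 279) in endothelial-like cells, a log2 ratio of 0.05 (-0.23 to 0.33) that was 0.52 with cells thinned to 2000 UMIs. No other class exceeded 7.90 CPM. A *Kdr* UMI was found in 62 of 73 and 43 of 55 endothelial-like cells, and in 0 of 61 and 0 of 111 pericyte-like cells, which allows up to 4.12 and 2.20 CPM. Endothelial-like cells held 64.4% (59.3 to 69.2) and 45.9% (41.0 to 50.9) of all *Kdr* UMIs. Macrophage-like cells held 17.4% and 43.2%, through their number. Their level was 7.90 and 5.78 CPM, with a UMI in 2.87% and 2.72% of cells at medians of 4716 and 6723.5 UMIs, beside 1.501% and 1.68% of fibroblast-like cells at 11178 and 13959.5 UMIs. With cells thinned the shares were 1.28% and 1.005% against 0.302% and 0.308%. In macrophage-like cells the summed level of 10 endothelial genes was 140 and 195 CPM, 1.99% and 2.76% of its level in endothelial-like cells. Only 3 of the 10 genes had enough UMIs in macrophage-like cells to be measured. *Cdh5* was at 1.20 and 1.49 CPM in macrophage-like cells, from 10 and 45 UMIs, against 1007 and 1040 CPM in endothelial-like cells. *Pecam1*, a leading gene of the endothelial-like cluster, had a UMI in 95 of 1705 and 536 of 4412 macrophage-like cells. *Kdr* stood at 3.40% and 2.40% of its endothelial level. Whether these UMIs came from macrophages was not tested.

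*Flt1* was at 558 CPM (514 to 605) in endothelial-like cells of the PBS-labelled and 1027 CPM (957 to 1101) of the DTX-labelled library, a log2 ratio of 0.88 (0.72 to 1.04) from 585 and 792 UMIs. Medians were 6 and 11 UMIs per cell, and 64 of 73 and 49 of 55 cells had a UMI. With cells thinned to 2000 UMIs the shares were 55.7% (43.3 to 67.6) and 78.8% (65.3 to 88.9). The ratio stayed under 2-fold, and in this class 4.47% of measured genes were past it, 1.84% higher and 2.62% lower. Pericyte-like cells were second at 314 CPM (279 to 353) and 293 CPM (268 to 320), with a ratio of -0.10 (-0.31 to 0.12). In these same cells no *Kdr* UMI was found. Dendritic-like cells were the only other class above 16 CPM, at 25.6 CPM (21.0 to 31.0) and 12.2 CPM (9.44 to 15.5), a ratio of -1.01 (-1.44 to -0.58) in a class where 2.77% of genes were past 2-fold, 1.4% higher and 1.37% lower. With 10 CPM added it was -0.68. Of those UMIs, 101 of 106 and 65 of 66 were in the subcluster led by *Clec4n* and *Mgl2*, at 43.2 and 20.4 CPM.

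**Figure D3:**
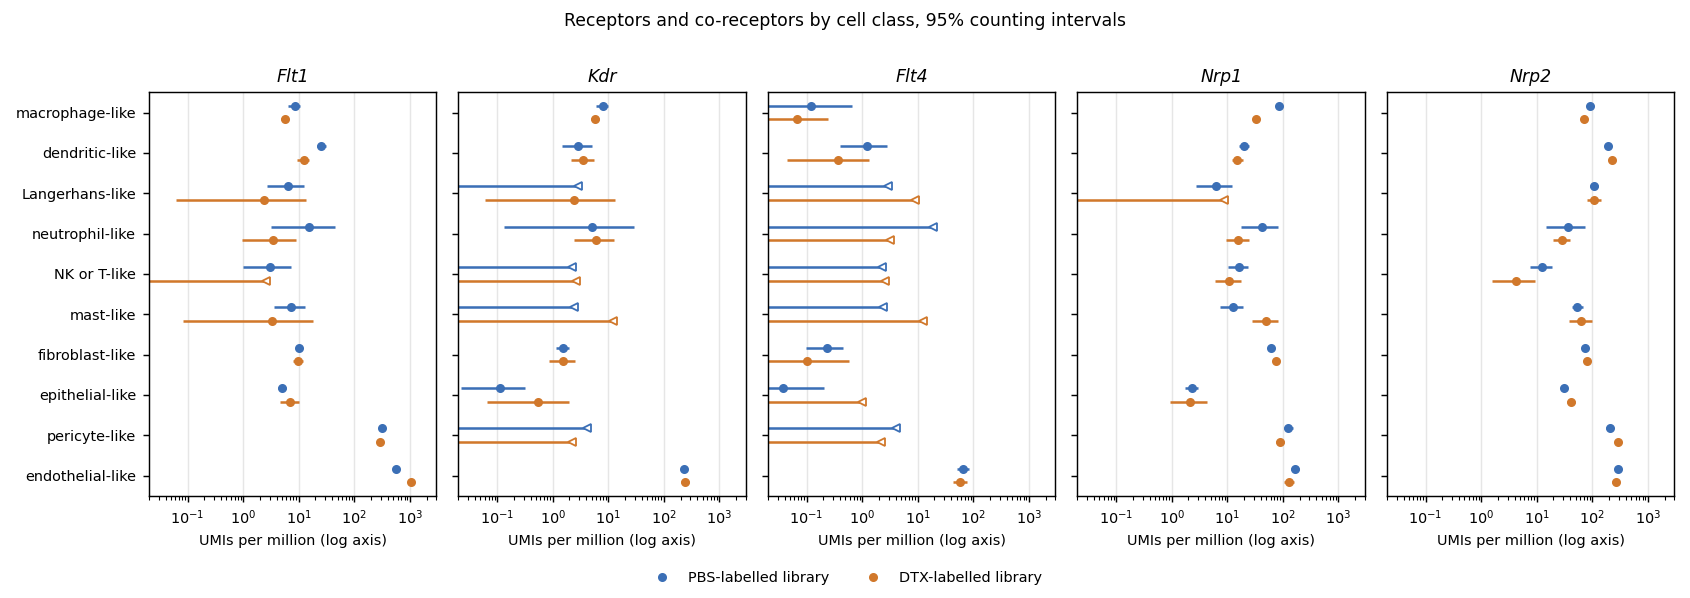
Level of the 3 receptor and 2 co-receptor genes in each cell class, in CPM on a log axis, with a point per library and bars for the 95% interval of counting error. Open triangles are upper limits at 0 UMIs. *Kdr* is at 233 and 241 CPM in endothelial-like cells and has no UMI in pericyte-like cells, while *Flt1* is high in both classes.

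*Flt4*, the lymphatic receptor gene, was at 64.9 CPM (50.4 to 82.2) and 58.4 CPM (42.6 to 78.1) in endothelial-like cells, a log2 ratio of -0.15 (-0.72 to 0.41) that was -1.28 with cells thinned to 2000 UMIs. These cells held 68 of its 83 and 45 of its 50 UMIs. A UMI was found in 27 of 73 and 14 of 55 cells, and 1 DTX-labelled cell held 37.8% of that library's endothelial UMIs. *Prox1*, the transcription factor that specifies lymphatic endothelium, had a UMI in 9 and 7 of the endothelial-like cells, and *Lyve1*, a lymphatic hyaluronan receptor, in 13 and 5. In the PBS-labelled library *Flt4* was found in 7 of the 9 cells with *Prox1* (77.8%) and in 31.2% of the rest. In the DTX-labelled library it was found in 3 of 7 (42.9%) and in 22.9% of the rest. With cells thinned to 2000 UMIs 4 and 2 cells had *Prox1*, too few for a comparison.

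The receptors were found together in single endothelial-like cells. *Kdr* and *Flt1* were both found in 54 of 73 and 40 of 55 cells, *Kdr* and *Nrp1* in 42 and 29, and *Kdr* and *Nrp2* in 56 and 37. *Flt1* and *Nrp1* were both found in 46 and 35. At full depth *Kdr* was found in 84.4% of cells with *Flt1* and 88.9% of cells without it in the PBS-labelled library. In the DTX-labelled library *Kdr* was found in 81.6% and 50%. At this depth 64 of 73 and 49 of 55 cells had *Flt1*, so the percentages without it rest on few cells. The counts of cells with both genes of a pair were not compared with those expected from each gene's own frequency. At 2000 UMIs per cell, *Kdr* was found in 25.6% of cells with *Flt1* and 51.6% of cells without it in the PBS-labelled library, and in 36.6% and 45.5% in the DTX-labelled library.

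*Nrp1*, the co-receptor of VEGFR2, was highest in endothelial-like cells at 165 CPM (141 to 191) and 128 CPM (104 to 156) and in pericyte-like cells at 126 CPM (104 to 152) and 89.4 CPM (75.6 to 105), and the intervals of these neighbours overlapped in each library. Fibroblast-like cells were at 61.4 and 74.7 CPM (0.28, 0.16 to 0.40). Macrophage-like cells differed more. *Nrp1* was at 85.2 CPM (79.1 to 91.7) in the PBS-labelled library from 712 UMIs and at 32.6 CPM (30.6 to 34.7) in the DTX-labelled library from 986 UMIs, a log2 ratio of -1.36 (-1.50 to -1.22) beside a median of 0.05 over all genes. The share of cells with a UMI was 28.5% and 16.0%, or 15.6% (13.8 to 17.5) and 6.07% (5.38 to 6.83) at 2000 UMIs per cell, against 2.45% and 2.63% at full depth and 0.357% and 0% (up to 1.65%) when thinned in epithelial-like cells, with medians of 12462 and 15847 UMIs. The ratio was past 2-fold under all 12 alternatives.

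The 7 macrophage-like subclusters differed in *Nrp1*. It was at 131 and 90.2 CPM in the Klf2-like, 85.2 and 73.0 CPM in the *Ccl8*, 94.5 and 56.4 CPM in the *Ccl7* and 101 and 45.0 CPM in the Ifit1-like subcluster. In the others it was low. The *Il1r2* subcluster had 19.9 and 14.3 CPM, the *Hp* subcluster 9.86 and 17.5 CPM, and the *Arg1* subcluster no UMI in 15 PBS-labelled cells, which allows up to 42.5 CPM, and 23.1 CPM in 1140 DTX-labelled cells. PBS-labelled levels at the DTX-labelled subcluster shares came to 38.2 CPM, beside the 32.6 CPM measured in the DTX-labelled library. That value has no interval and takes the *Arg1* subcluster as without *Nrp1*, from its 15 PBS-labelled cells. DTX-labelled levels at the PBS-labelled shares came to 67.8 CPM, a log2 ratio of -0.33 to the PBS-labelled level. *Nrp1* was lower in 5 of the 7 subclusters, and in 3 of these, the *Ccl7*, Klf2-like and Ifit1-like ones, the interval of the ratio lay below 0.

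Cells with and without *Mrc1*, the gene behind the CD206 label, were compared within the macrophage-like class. At 2000 UMIs per cell *Nrp1* was found in 18.5% of cells with an *Mrc1* UMI and 12.4% of those without in the PBS-labelled library, and in 7.89% and 4.73% in the DTX-labelled library. *Vegfa* was found in 43.6% and 46.6%, and in 51.6% and 49.4%. The absence of an *Mrc1* UMI at this depth does not make a cell negative for CD206.

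*Nrp2*, the co-receptor of VEGFR3, had counts in all 10 classes. Endothelial-like cells were at 287 CPM (256 to 321) and 263 CPM (228 to 302), pericyte-like cells at 207 CPM (178 to 239) and 295 CPM (269 to 322) and dendritic-like cells at 190 CPM (177 to 204) and 226 CPM (214 to 239). In the DTX-labelled library the intervals of pericyte-like and endothelial-like cells overlapped, as did those of endothelial-like and dendritic-like cells. The ratio in pericyte-like cells was 0.51 (0.26 to 0.76), and with cells thinned to 2000 UMIs 1.24. Langerhans-like cells were at 106 and 108 CPM, fibroblast-like at 74.5 and 80.5 CPM, and epithelial-like at 30.6 and 41.9 CPM (0.44, 0.19 to 0.68). In macrophage-like cells *Nrp2* was at 92.2 CPM (85.8 to 98.9) and 70.2 CPM (67.3 to 73.3), a log2 ratio of -0.39 (-0.51 to -0.27). At equal subcluster shares the sign depended on which library's shares were used. DTX-labelled levels at the PBS-labelled subcluster shares came to 103 CPM, a log2 ratio of 0.16 to the PBS-labelled level. PBS-labelled levels at the DTX-labelled shares came to 95.2 CPM, above the 70.2 CPM measured in the DTX-labelled library. *Nrp2* was higher in the DTX-labelled library in 3 of the 7 subclusters and lower in 4.

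The subclusters with the most *Nrp2* were not those with the most *Nrp1*. Among macrophage-like cells *Nrp2* was at 207 and 141 CPM in the *Arg1* subcluster and at 99.5 and 123 CPM in the *Ccl8* subcluster. Among dendritic-like cells the *Fscn1* subcluster was at 451 CPM (275 UMIs) and 540 CPM (400 UMIs), the *Clec4n* subcluster at 203 and 177 CPM, and a subcluster led by *Ccl4*, *Itga1* and *Cst3* at 16.8 CPM and at 0 UMIs in 52 cells. Among fibroblast-like cells the subcluster led by *Coch* and *Fmod* was at 209 and 195 CPM against 50.7 and 43.4 CPM in the *Plac8* subcluster. For *Nrp1* the same fibroblast subclusters were at 83.2 and 74.4 CPM and at 95.6 and 93.8 CPM.

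Over the 9 genes and 10 classes, 46 of 90 pairs of gene and class had at least 50 UMIs, and 6 of them were past 2-fold. *Vegfa* in the mixed mast-like class and *Pgf* in fibroblast-like cells were higher in the DTX-labelled library, and *Vegfb* and *Nrp1* in macrophage-like, *Flt1* in dendritic-like and *Pgf* in pericyte-like cells were lower. In macrophage-like cells 2 of 7 measured members were past 2-fold, both lower, where 3.4% of all measured genes were lower and 1.63% higher. In mast-like, fibroblast-like, dendritic-like and pericyte-like cells 1 member was past it, of 2, 8, 6 and 6 measured. Of all measured genes 17.8%, 4.04%, 2.77% and 4.33% were in those classes. No member was past 2-fold among the 3, 1, 1, 6 and 6 measured in Langerhans-like, neutrophil-like, NK or T-like, epithelial-like and endothelial-like cells. There 3.5%, 10.3%, 2.41%, 4.68% and 4.47% of measured genes were. With so few members the absence of a call says little about the family. The median ratio of the members was -0.39 in macrophage-like, 0.13 in fibroblast-like and -0.14 in endothelial-like cells, beside medians of 0.05, 0.12 and -0.03 over all measured genes of those classes. The members had to reach 50 UMIs to be counted, so these counts and medians cover the measured pairs and not the family.

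**Figure D4:**
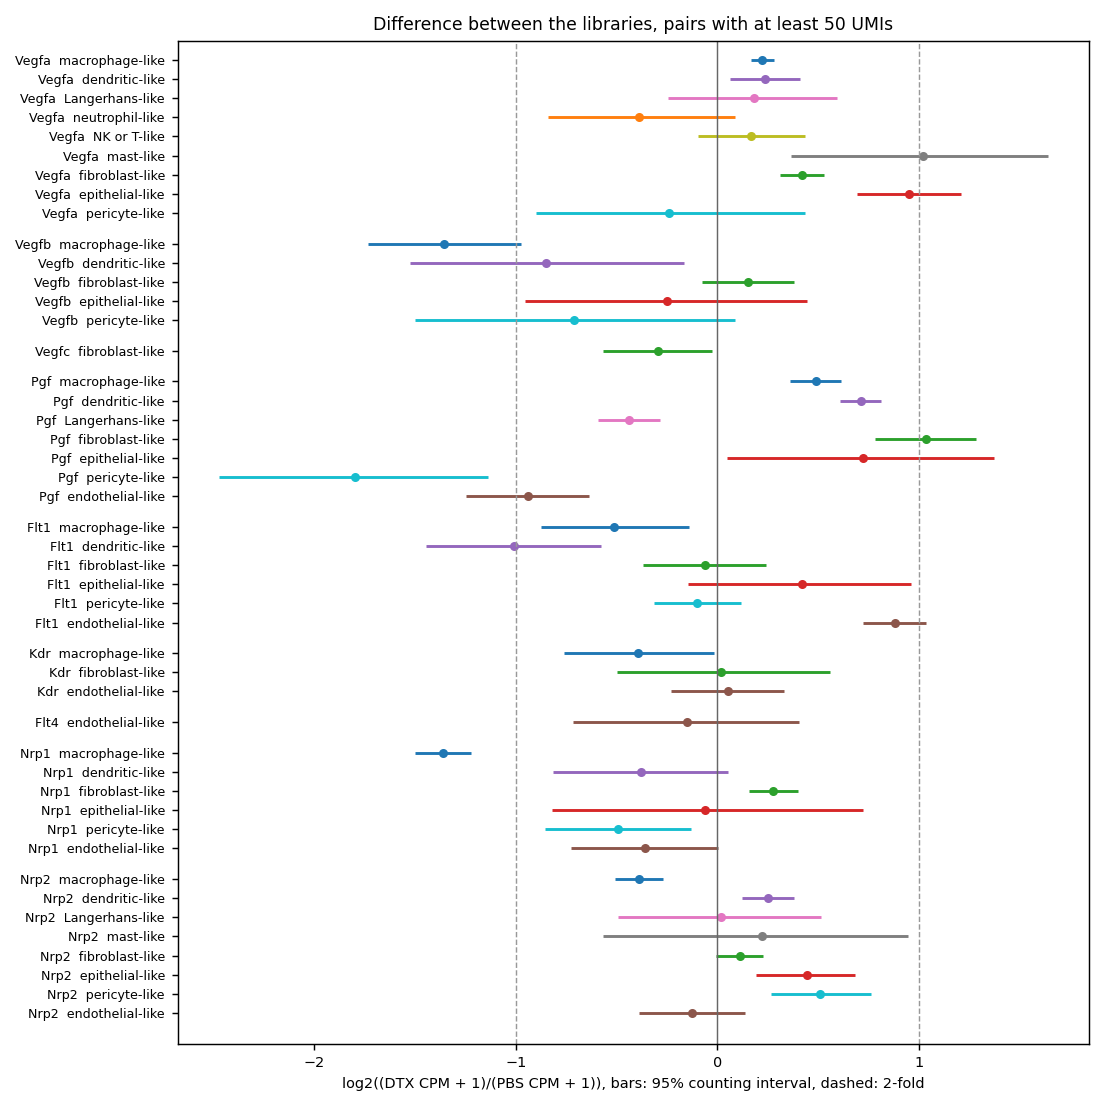
Log2 ratio of the DTX-labelled to the PBS-labelled library for each gene and class with at least 50 UMIs, with the 95% interval of counting error, and lines at 0 and at 2-fold. *Nrp1* (-1.36) and *Vegfb* (-1.36) in macrophage-like cells and *Pgf* in pericyte-like cells (-1.80) lie past 2-fold on the lower side.

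The genes around the family were counted as lists. Of 9 oxygen sensing genes, 8 were measured in macrophage-like cells and 1 was past 2-fold. This was *Hif1a*, the subunit of the hypoxia-inducible factor that drives *Vegfa*, at 291 and 693 CPM (1.25, 1.19 to 1.31). The list's median ratio was 0.13. Its partner *Arnt* was at 79.8 and 78.9 CPM, and the prolyl hydroxylase genes *Egln2* and *Egln1* were at 84.2 and 56.7 and at 14.5 and 20.1 CPM. In endothelial-like cells 5 were measured and *Hif1a* was again past 2-fold, at 383 and 799 CPM (1.06, 0.87 to 1.24). In fibroblast-like cells 8 were measured, *Hif1a* was at 415 and 388 CPM, and *Epas1*, the gene of HIF-2 alpha, was past 2-fold at 23.5 and 48.7 CPM (1.02, 0.86 to 1.18). Over all measured genes, 5.03% were past 2-fold in macrophage-like, 4.47% in endothelial-like and 4.04% in fibroblast-like cells.

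Of 21 genes of endothelial signalling and response, 19 were measured in endothelial-like cells, none was past 2-fold higher and 3 were past it lower, with a median ratio of 0.05. Over all 4991 genes measured in that class 1.84% were past 2-fold higher and 2.62% lower. *Cdh5*, *Rcan1*, *Ptprb* and *Tie1*, the 4 with the most UMIs, had ratios of 0.05, 0.14, 0.03 and 0.29. *Rcan1*, a calcineurin inhibitor induced by VEGFR2 signalling, was at 330 and 364 CPM. *Angpt2*, a ligand of the receptor TIE2, was at 149 and 161 CPM (0.11, -0.24 to 0.46). *Apln*, the gene of apelin, was at 233 CPM (244 UMIs) and 7.78 CPM (6 UMIs), a log2 ratio of -4.73 (-5.94 to -3.68). *Dll4*, a Notch ligand, was at 49.6 CPM (52 UMIs) and 11.7 CPM (9 UMIs), a ratio with an interval of -3.08 to -1.02, and *Esm1*, the gene of endocan, at 123 CPM (129 UMIs) and 57.1 CPM (44 UMIs), a ratio of -1.10 (-1.61 to -0.60). The last 3 were named after their values were seen, as all those past 2-fold, and so was *Angpt2*. They rested on 73 and 55 cells that were not separated by vessel type, and the RNA of other classes in those cells also differed. Macrophage RNA was at 100 and 373 CPM, fibroblast RNA at 8099 and 3981 CPM and keratinocyte RNA at 912 and 134 CPM, and their part in the values of endothelial-like cells was not tested.

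Of 12 class 3 semaphorin and plexin genes, all 12 were measured in fibroblast-like cells and none was past 2-fold. *Sema3c* was at 103 and 83.2 CPM, *Sema3b* at 65.2 and 37.9 CPM and *Sema3a*, a neuropilin 1 ligand, at 27.0 and 21.8 CPM. In epithelial-like cells 8 were measured and 1, *Sema3d*, was past 2-fold lower, at 35.0 and 10.2 CPM, beside 2.57% of genes higher and 2.11% lower in that class. *Plxnd1*, a semaphorin receptor of vessels, was at 299 and 283 CPM in endothelial-like cells.

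For each member with at least 200 UMIs, the genes with the most similar pattern were ranked by Pearson's r of log2(CPM + 10) over 18 points, each a class in a library with at least 50 cells. The points share libraries and depth, and r is given as a description. *Kdr* was most like *Cdh5* (0.986), *Myct1* and *Selp*, and *Esam* (0.979) and *Tspan12* (0.977) were among the 3 genes most like *Flt1*. *Vegfa* was most like *Gas2l3* (0.924), *Trf* and *Fam105a*, *Vegfb* like *Zfyve21* (0.925), *Selenow* and *Selenom*, and *Vegfc* like *Foxp2* (0.921), *Hmcn1* and *Cryz*. *Pgf* was most like *Sult1a1* (0.888), *Grasp* and *Map4k4*. For the co-receptors the nearest genes were *Mef2c* (0.907), *Inppl1* and *Tram2* for *Nrp1*, and *Anxa3* (0.894), *Pvr* and *Sh3glb1* for *Nrp2*. Between members, *Flt1* and *Kdr* had r = 0.708, *Vegfa* and *Flt1* -0.676, and *Vegfa* and *Pgf* 0.01.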

How the data were processed

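The 2 libraries were made with the 10x Single Cell 3′ v3 chemistry from live cells of pooled wounds. Raw UMI counts per gene and barcode were deposited by the authors, made with Cell Ranger 6.1.1 against mm10 per the file headers, with barcodes already filtered as cells. The study's methods name another version of that program. The labels and the methods disagree on the control group, and samples were grouped by the labels.

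Barcodes with at least 500 genes and no more than 6% of UMIs from mt- genes were kept, without an upper limit on genes. The study's methods also filter on more than 2000 genes, which 55.9% and 52.2% of all barcodes had. That limit was used here only as an alternative. Scrublet (scanpy 1.11.5) was run per library with 8% doublets assumed. Its own threshold removed 382 barcodes (4.59%) of the PBS-labelled library but none of the DTX-labelled library, where the highest 8.00% of scores (575 barcodes) were removed instead. The libraries were clustered together in Seurat 5.3.0 under R 4.3.3 (2000 variable genes, 30 components, resolution 0.2) with the 9 genes left out. Clusters were named from marker lists. The members and lists were chosen with earlier results of these data known, and the scoring that turns markers into names was written after clusters had been seen. Classes with under 20 cells in a library were not compared, a limit also set after the data were seen (7 and 11 myocyte-like cells).

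Counts were summed per class and library with Python 3.11.15, numpy 2.4.6, scipy 1.17.1 and pandas 2.3.3. Levels carry exact Poisson intervals, shares Clopper-Pearson intervals and log2 ratios (1 CPM added) intervals from an exact conditional binomial, all at 95%. They cover counting error only. With 1 library per group no test was possible. A gene was measured with at least 50 UMIs in both libraries together and called past 2-fold. Shares of cells with a UMI were also taken after thinning each cell to 2000 UMIs, leaving out 221 and 132 macrophage-like and 3 and 3 endothelial-like cells, for example. Named genes are the 9 members, up to 4 genes of each pathway list with the most UMIs in a class, and the 3 genes most like each member, of which 1 is not reported here. *Apln*, *Dll4*, *Esm1* and *Angpt2* were named in addition, after their values were seen. The interval code was tested on simulated data. Promoter windows are from RefSeq, GRCm38.p6, and gene positions from GENCODE vM21. Alternatives covered cell filters, doublets, resolution, scaling, thinning, the CPM added and the UMI minimum. No table of protein sequences was used here.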

Additional observations from a re-analysis of the deposited data

Results flagged for a closer look

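*Pgf* stood out because its ratio between the libraries ran in opposite directions past 2-fold in 2 classes. It was higher in the DTX-labelled library in fibroblast-like cells, with a log2 ratio of 1.03, and lower in pericyte-like cells, with a log2 ratio of -1.80. The difference between these ratios was not tested, because each class has 1 library per group. The fibroblast-like value ranged from 0.63 to 1.56 over the 12 alternatives and was past 2-fold in 7, and the pericyte-like value ranged from -1.85 to -0.68 over 11 and was past 2-fold in 10. No alternative turned the sign of either.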

How the results depend on the processing

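No paired analysis was possible because each group has 1 library. Over 40 results and 451 recomputed values, 388 moved by less than the counting error or, for counts of genes, by less than 1.5 times, and 63 moved by more. Thinning to 2000 UMIs moved 20 and left 19 the same, and leaving out cells with over 2000 genes moved 8 and left 6. The causes were not tested. Leaving out cells with over 2000 genes kept 2480 cells in each library and gave no value for dendritic-, Langerhans-, epithelial-, mast-, pericyte- and endothelial-like classes. It moved the *Vegfa* ratio in macrophage-like cells from 0.22 to 0.47 and in fibroblast-like cells from 0.42 to -0.0044, the *Nrp1* ratio in macrophage-like cells from -1.36 to -1.07, and the macrophage-like share of *Vegfa* UMIs to 88.0% and 97.4%. That share was 40.8% and 81.9% with no doublets removed, 52.5% and 88.2% with the highest 15% of scores removed (which left no mast-like class), 82.8% in the DTX-labelled library with a mitochondrial limit of 10%, and 86.4% there without the subclusters led by macrophage genes. At resolution 0.5 a cluster of MHC class II macrophages stayed unnamed, the share was 29.3% and 61.1%, the *Nrp1* ratio was -1.67, and 271 genes were past 2-fold higher in macrophage-like cells in place of 165. Thinning to 2000 UMIs gave shares of 61.4% and 90.6%, *Vegfa* 0.30 in macrophage-like cells, *Flt1* 0.72 and *Kdr* 0.52 in endothelial-like cells, *Kdr* shares of 46.0% and 35.6% in endothelial-like cells, and 226 genes past 2-fold lower in place of 344. The mitochondrial limit of 10% gave a *Kdr* share of 56.3% in the DTX-labelled library. Means over cells gave *Vegfa* 0.29 in macrophage-like and *Flt1* 0.66 in endothelial-like cells, and *Flt1* was 0.59 with no doublets removed. Adding 10 CPM gave *Nrp1* -1.16 and 74 genes higher and 104 lower, and a minimum of 200 UMIs gave 192 lower. *Vegfa* in fibroblast-like cells was 0.30 with median-of-ratios scaling and 0.28 without the macrophage-led subclusters, and in epithelial-like cells 0.32 without them. Among single genes, *Vegfb* in macrophage-like cells ranged from -1.72 to -0.56, *Flt1* in dendritic-like cells from -1.46 to -0.68 and *Vegfa* in mast-like cells from 0.74 to 1.67. *Pgf* in Langerhans-like cells ranged from -1.34, with the members kept among the clustering genes, to -0.07 when thinned. With the members kept, a second cluster of 100 and 78 cells was also named Langerhans-like. It had 1 Langerhans marker among its leading genes and shared *Cst3*, *H2afz* and *Pkib* with the smaller dendritic-like cluster. The depth of 73 and 55 endothelial-like cells limits every value of *Kdr* and *Flt4*.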
